A study of Homo sapiens with 6 samples.

Results

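The aminoacyl-tRNA synthetase genes were followed in ARPE-19, an established line of human retinal pigment epithelial (RPE) cells. The members were the 36 genes whose symbol in the deposited count table equalled a listed synthetase, 20 cytosolic and 16 mitochondrial, out of 58735 genes in the table. All 36 passed the low-count filter and were among the 13787 genes tested. Symbols are those of GENCODE 29, so AARS, for example, is the gene now called AARS1. The control group, NC, held 3 libraries of cells with the genotype given as WT. The other group, OE_CD51_ICD, held 3 libraries of the same line with CD51-ICD overexpressed. CD51 is the integrin alpha V subunit, encoded by ITGAV. The construct, the promoter that drove it and the number of clones were not given in the sources used here.

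Each synthetase joins 1 amino acid to its transfer RNA (tRNA), the step that matches the genetic code to protein. Cytosolic enzymes serve the translation of nuclear genes, and several of them sit with scaffold proteins in the multisynthetase complex. The mitochondrial enzymes are also encoded in the nucleus and are imported to serve the translation of respiratory chain subunits inside the organelle. Class I and class II enzymes have unrelated catalytic folds, and inherited defects of many members affect nerve, hearing, heart or vision.

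The cytosolic enzymes split in OE_CD51_ICD and the mitochondrial enzymes mostly fell or were not called. Of the 20 cytosolic genes, 6 were higher, 8 were lower and 6 were not called by edgeR's quasi-likelihood test at an adjusted p under 0.05. Of the 16 mitochondrial genes, 1 was higher, 8 were lower and 7 were not called. Among all 13787 tested genes, 51.0% were called, 25.2% higher and 25.8% lower. The values of the groups did not overlap in 25 of the 36 members, against 57.5% of all tested genes. The share called lower was 40% of the cytosolic list and 50% of the mitochondrial list, and the share called higher was 30% and 6.25%. The median log2 fold change, OE_CD51_ICD over NC, was -0.02 for cytosolic genes, -0.39 for mitochondrial genes and 0.01 for all tested genes. Under upper-quartile scaling, 7 cytosolic genes were higher and 5 lower, and the cytosolic median was 0.02. With libraries scaled by size alone, or with each library's GC trend removed, no mitochondrial gene was called higher, and 8 or 9 were lower.

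Summed over the lists, mitochondrial synthetase RNA was 531, 539 and 545 CPM (counts scaled to library depth) in NC replicates 1, 2 and 3. In the OE_CD51_ICD replicates it was 399, 407 and 420.3 CPM, so the groups did not overlap and the mean was 24.1% lower. Cytosolic sums were 2813, 2725 and 2811 CPM in NC and 2496, 2458 and 2646 CPM in OE_CD51_ICD, again without overlap, and their mean fell by 8.96%. The largest falls in CPM within the cytosolic sum were those of VARS (mean 381.5 to 209) and FARSA (178 to 107). The cytosolic median log2 fold change was -0.02, and 6 of the 20 genes were called higher. These sums carry no test. In bulk RNA, fewer cells that hold a transcript and less transcript per cell cannot be told apart.

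**Figure D1:**
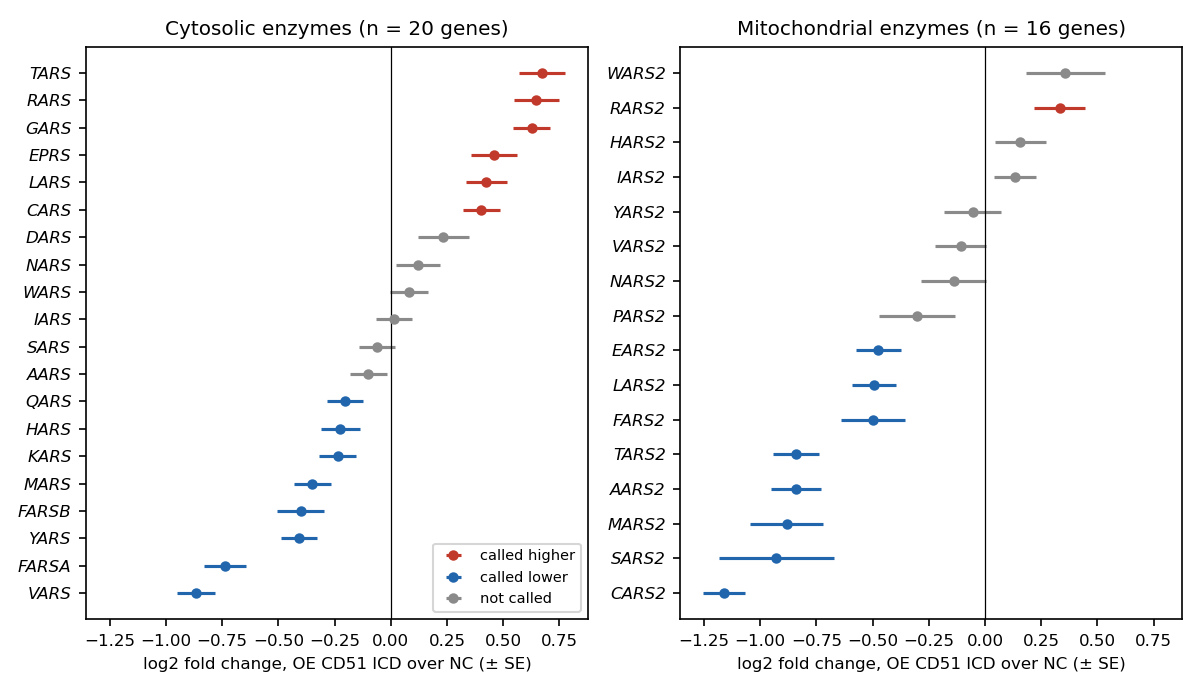
Log2 fold change of each synthetase gene, OE_CD51_ICD over NC (points, with the standard error from edgeR as bars), for 20 cytosolic and 16 mitochondrial genes, with 3 libraries per group. The cytosolic genes run from -0.87 (VARS) to 0.67 (TARS), and the mitochondrial genes from -1.16 (CARS2) to 0.36 (WARS2, not called).

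Total counts ran from 13616694 to 16934668 per library, and the 36 genes together took 41917 to 57801 of them. ITGAV, the gene of the CD51 subunit, was 98.4 ± 12.9 CPM in NC and 448 ± 83.5 in OE_CD51_ICD (SD, n = 3). Counts per gene do not separate the construct's transcript from that of the cells' own gene. Of 13 RPE markers, 9 reached a mean of 1 CPM, and RPE65 and TTR had no count. None of the fibroblast, immune or melanocyte markers reached that level, while 2 of 4 endothelial markers (KDR and VWF) and 2 of 5 neural retina markers (RBPMS and NRL) did. Their sums were 2.08 to 2.83 CPM in NC and 0.501 to 1.57 in OE_CD51_ICD for the endothelial list, and 53.0 to 58.4 against 46.1 to 48.0 for the neural retina list, with CRX at 0. Summed RPE markers were 5284 to 5755 CPM in NC and 4663 to 5384 in OE_CD51_ICD, mostly from the keratins KRT8 and KRT18, which were not called. Of the other RPE markers, RDH10 (log2 -1.88), RDH5 (-1.33) and MITF (-0.56) were lower, and PMEL (0.80) and RLBP1 (0.81) were higher. The part of these markers in any result was not tested. Separate cultures within a group are not stated in the labels, and the p-values therefore reflect the spread among these 6 libraries, which may be technical.

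Promoter sequence was available for 30 of the 36 genes, as RefSeq windows on GRCh38.p14 from 250 bases before to 50 bases after an annotated start. Of 10 motifs searched on both strands, 3 are printed because they recur among members. TGATGNAA is the core of the amino acid response element, the site through which ATF4 and its C/EBP partners act. It was present in 7 of 16 cytosolic and 1 of 14 mitochondrial genes with a window, against 4.46% of 27305 genes, and in 3.62% of 35116 windows. The 7 cytosolic matches are shown 5′ to 3′ on the strand of the gene, with the match in capitals. On most lines the match lies on the opposite strand, so its reverse complement is what is printed.
TARS, chr5:33440956-33440985, plus strand: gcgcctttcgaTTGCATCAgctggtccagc
GARS, chr7:30594834-30594863, plus strand: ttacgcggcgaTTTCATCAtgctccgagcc
CARS, chr11:3057407-3057436, minus strand: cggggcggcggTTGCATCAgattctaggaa
NARS, chr18:57621804-57621833, minus strand: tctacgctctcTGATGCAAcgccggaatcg
IARS, chr9:92293692-92293721, minus strand: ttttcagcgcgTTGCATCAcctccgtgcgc
AARS, chr16:70289675-70289704, minus strand: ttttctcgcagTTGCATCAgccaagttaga
MARS, chr12:57488053-57488082, plus strand: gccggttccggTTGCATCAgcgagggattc
These 7 genes did not change alike: TARS, GARS and CARS were called higher, MARS was called lower, and NARS, IARS and AARS were not called. The mitochondrial gene with a match, YARS2, was not called.

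CACGTG, the palindromic E-box that MYC and related factors bind, was in 8.77% of genes and 7.26% of windows. It was present in 4 of 30 members with a window, and in 3 of the 14 mitochondrial genes with one. These 3 were all called lower, as were 7 of the 14, and a link between the motif and the change was not tested. Among cytosolic genes it was in IARS alone, which was not called.
CARS2, chr13:110706502-110706529, minus strand: gctgggatgcaCACGTGcttcgctaaca
MARS2, chr2:197705347-197705374, plus strand: tgcgcctctcaCACGTGctgtcagaacg
EARS2, chr16:23557349-23557376, minus strand: agggagaagccCACGTGtgctattccat
CCGGAAGT, a site of ETS family factors, was in 4.95% of genes and 4.14% of windows, and in 5 cytosolic and 3 mitochondrial members. HARS and HARS2 lie head to head on chromosome 5 and shared the same pair of matches, printed here on the strand of each gene.
HARS, chr5:140691361-140691390, minus strand: cgactcgatagCCGGAAGTcatccttgctg
HARS2, chr5:140691436-140691465, plus strand: tccggctcctcCCGGAAGTgccgaagctgg
HARS was called lower, at a log2 fold change of -0.22, a call lost under 8 of 19 alternatives. HARS2 was not called, at 0.16. The part of the shared matches in either value was not tested.

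The other 7 motifs were less frequent among members or common everywhere. CCAAT was in 16 of 30 members, against 39.7% of genes and 34.6% of windows. TTTCGCGC was in GARS and EARS2 (0.63% of genes), TGACGNAA in NARS2 (2.06%), and the NRF1 palindrome in MARS2 (1.52%). TGACGTCA, TTTGGCGC and the ZBTB33 palindrome were in no member, against 2.25%, 0.795% and 0.505% of genes. In no member did matches of different motifs share a base. A match describes letters in a window, not a bound site.

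Among mitochondrial enzymes, CARS2 had the largest change and was the only member called with a change of at least 2-fold, against 12.7% of all tested genes in either direction and 5.83% called lower by that much. CARS2 (ENSG00000134905, chromosome 13, 110641412 to 110713603, GRCh38) charges the mitochondrial cysteine tRNA and is also known to make cysteine persulfides. It measured 95.4, 92.9 and 93.2 CPM in NC and 41.0, 38.1 and 46.9 CPM in OE_CD51_ICD. Each OE_CD51_ICD library was far below each NC library, and the log2 fold change was -1.16 ± 0.09 (SE, adjusted p = 1.17e-11, edgeR with Benjamini-Hochberg adjustment).

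A group of 4 further mitochondrial genes fell to between 0.525 and 0.559 of the control level. TARS2, the threonine enzyme, measured 65.9, 63.7 and 59.5 CPM in NC and 32.3, 33.1 and 40.3 in OE_CD51_ICD (log2 -0.84 ± 0.10, edgeR adjusted p = 4.64e-08). AARS2, the alanine enzyme, measured 38.3, 35.7 and 40.6 against 20.9, 19.8 and 23.3 CPM (-0.84 ± 0.11, adjusted p = 2.55e-07). MARS2, the methionine enzyme that also charges the tRNA from which mitochondrial initiator tRNA is made, measured 13.5, 14.6 and 13.0 against 6.45, 7.04 and 8.87 CPM (-0.88 ± 0.16, adjusted p = 3.94e-05). In all 3 genes the groups were well separated, and OE_CD51_ICD replicate 3 was the nearest to NC. SARS2, the serine enzyme and the lowest of all members by level, measured 4.74, 3.82 and 3.78 against 2.11, 2.67 and 1.72 CPM (-0.93 ± 0.26, adjusted p = 0.00309). Its value rests on 192 counts in NC and 95 in OE_CD51_ICD, and 46.2% of its exon bases are shared on the same strand with AC011455.2, which had 0 counts. On the log2(FPKM + 1) scale its difference was -0.45.

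Smaller falls were seen for the leucine, phenylalanine and glutamate enzymes. LARS2 measured 47.8, 48.3 and 50.7 CPM in NC and 33.8, 34.3 and 36.1 in OE_CD51_ICD (log2 -0.49 ± 0.10, edgeR adjusted p = 0.000101). EARS2, whose product also starts the indirect route to mitochondrial glutaminyl-tRNA, measured 58.0, 58.0 and 62.7 against 38.1, 41.8 and 48.7 CPM (-0.48 ± 0.10, adjusted p = 0.000218). FARS2 measured 19.96, 19.5 and 19.9 against 11.8, 13.6 and 16.7 CPM (-0.50 ± 0.14, adjusted p = 0.00386). None of these groups overlapped. The OE_CD51_ICD libraries of FARS2 spread widely (SD 2.51 against 0.237 CPM in NC), and without OE_CD51_ICD replicate 1 its adjusted p was 0.0585.

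RARS2, the arginine enzyme, was the 1 mitochondrial gene called higher. It measured 21.5, 22.9 and 20.6 CPM in NC and 28.4, 26.0 and 27.4 in OE_CD51_ICD (log2 0.33 ± 0.12, edgeR adjusted p = 0.0169). The groups did not overlap, but the call was lost under 6 of 19 alternatives, with adjusted p from 0.00039 to 0.419. It was lost without NC replicate 1, NC replicate 3 or OE_CD51_ICD replicate 1, and with the GC trend removed the log2 value was 0.12.

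The 7 mitochondrial genes that were not called spread over both signs. WARS2 (tryptophan) measured 5.73, 7.57 and 8.58 CPM in NC and 9.08, 9.77 and 9.08 in OE_CD51_ICD, and PARS2 (proline) 8.505, 8.495 and 9.39 against 6.65, 7.65 and 7.08. In both the groups did not overlap, yet the adjusted p was 0.0911 for WARS2 and 0.137 for PARS2 by edgeR. The log2 value of WARS2 was 0.36 and rested on single libraries: it was 0.20 without NC replicate 1, and 0.49 without NC replicate 3, where it was called (adjusted p = 0.0368, edgeR). WARS2 was also called with each library's trend on gene length removed. In the other 5 the groups overlapped. Their log2 values were 0.16 for HARS2 (histidine), 0.13 for IARS2 (isoleucine), -0.06 for YARS2 (tyrosine), -0.11 for VARS2 (valine) and -0.14 for NARS2 (asparagine). IARS2 was called higher without OE_CD51_ICD replicate 3 (0.22, edgeR adjusted p = 0.029). VARS2 shares 22.0% of its exon bases with GTF2H4 on the same strand, which had 15 counts over all libraries.

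**Figure D2:**
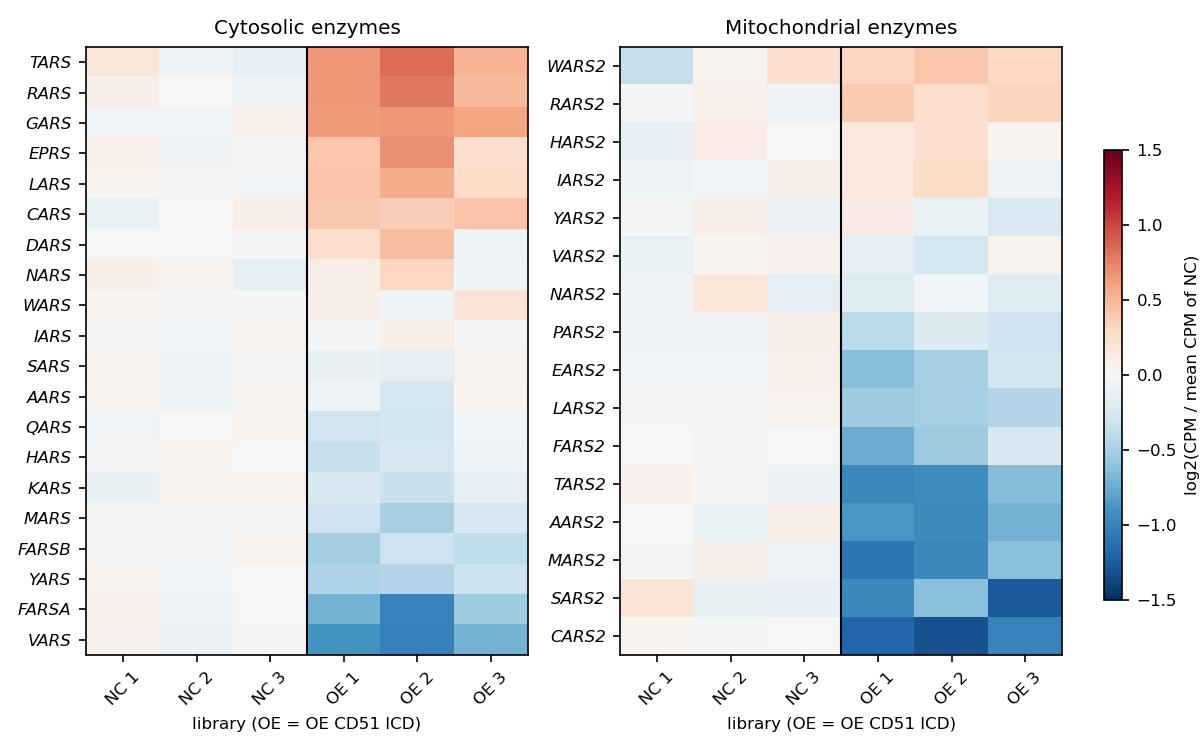
Level of each synthetase gene in each library, as log2 of CPM over the mean CPM of the 3 NC libraries (colour scale, red higher, blue lower), cytosolic genes at left and mitochondrial genes at right, ordered by fold change. The blue block of mitochondrial genes from EARS2 to CARS2 is seen in all 3 OE_CD51_ICD libraries, while the cytosolic genes divide into a red and a blue block.

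The 6 cytosolic genes that rose did so by 1.32 to 1.59 times. TARS (ENSG00000113407, chromosome 5, 33440696 to 33469539), the threonine enzyme, measured 50.1, 42.5 and 39.7 CPM in NC and 68.9, 78.9 and 63.2 in OE_CD51_ICD (log2 0.67 ± 0.10, edgeR adjusted p = 2.77e-06). RARS, the arginine enzyme, measured 38.7, 36.4 and 34.5 against 57.5, 63.0 and 51.2 CPM (0.65 ± 0.10, adjusted p = 3.52e-06). GARS, the glycine enzyme, whose gene encodes both the cytosolic and the mitochondrial form, measured 99.5, 100.03 and 108 against 159.6, 161 and 154 CPM (0.63 ± 0.08, adjusted p = 1.41e-07). The 3 genes had separate groups, and the SD of GARS in OE_CD51_ICD was small, at 3.49 CPM.

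EPRS, LARS and CARS rose less. EPRS, a single protein that charges both glutamate and proline tRNA and so joins a class I and a class II enzyme, measured 51.3, 46.9 and 47.4 CPM in NC and 64.7, 77.9 and 57.7 in OE_CD51_ICD (log2 0.46 ± 0.10, edgeR adjusted p = 0.000384). LARS, the leucine enzyme and a known leucine sensor for mTORC1, measured 61.3, 60.7 and 58.3 against 80.8, 88.2 and 73.1 CPM (0.43 ± 0.09, adjusted p = 0.000251). CARS, the cysteine enzyme, measured 92.3, 99.4 and 106 against 132, 128 and 133 CPM (0.40 ± 0.08, adjusted p = 0.000163). In each of the 6 genes every OE_CD51_ICD library was above every NC library. All 6 calls held under each of the 19 alternatives.

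The largest cytosolic fall was that of VARS (ENSG00000204394, chromosome 6, 31777518 to 31795953), the valine enzyme, which forms a separate complex with elongation factor 1. It measured 400.0, 359 and 386 CPM in NC and 205, 189.7 and 234 in OE_CD51_ICD (log2 -0.87 ± 0.08, edgeR adjusted p = 6.41e-10). FARSA, the catalytic alpha subunit of phenylalanyl-tRNA synthetase, measured 188, 169 and 178 against 109, 89.2 and 123 CPM (-0.74 ± 0.09, adjusted p = 1.22e-07). FARSB, the beta subunit of the same enzyme, measured 40.4, 40.7 and 42.7 against 28.8, 33.1 and 31.8 CPM (-0.40 ± 0.10, adjusted p = 0.00169). Both subunits thus fell, without overlap between the groups, and FARS2, the mitochondrial enzyme for the same amino acid, was also called lower.

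YARS and MARS fell to 0.753 and 0.785 of the control level. YARS, the tyrosine enzyme, measured 165, 155 and 160.2 CPM in NC and 116, 118 and 129 in OE_CD51_ICD (log2 -0.41 ± 0.08, edgeR adjusted p = 9.8e-05). MARS, the methionine enzyme that also charges the initiator tRNA, measured 173, 173 and 168 against 138, 121 and 144 CPM (-0.35 ± 0.08, adjusted p = 0.000719). MARS shares 355 exon bases with DDIT3 on the opposite strand, and the use of strand in counting was not given in the sources used here.

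The last 3 calls among cytosolic genes were weak. KARS, the lysine enzyme, whose gene also serves both compartments, had a log2 fold change of -0.24 (edgeR adjusted p = 0.0185). HARS, the histidine enzyme, had -0.22 (adjusted p = 0.0322), and QARS, the glutamine enzyme, had -0.20 (adjusted p = 0.0372). HARS and HARS2 share 437 exon bases on opposite strands. The groups did not overlap in any of the 3, but QARS came as close as 304 CPM in both groups. The call was lost under 6 of 19 alternatives for KARS (adjusted p 0.0009 to 0.105), 8 for HARS (0.0023 to 0.286) and 14 for QARS (0.00168 to 0.571). Without NC replicate 2, OE_CD51_ICD replicate 1 or OE_CD51_ICD replicate 2, all 3 calls were lost and the number of cytosolic genes called lower was 5.

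The 6 cytosolic genes that were not called included some of the most abundant. AARS (alanine) measured 329 ± 12.2 CPM in NC and 307 ± 30.7 in OE_CD51_ICD, SARS (serine) 203 ± 7.85 and 194 ± 14.9, and IARS (isoleucine) 145 ± 5.14 and 146 ± 6.63 (SD, n = 3). WARS (tryptophan), known as interferon-inducible, measured 99.8 ± 2.34 and 106 ± 10.01 CPM. NARS (asparagine) and DARS (aspartate) had log2 values of 0.12 and 0.23. All 6 pairs of groups overlapped, and the adjusted p was lowest for DARS, at 0.0909 by edgeR. DARS was called higher under 3 of 19 alternatives, which were upper-quartile scaling, removal of the gene length trend and leaving out OE_CD51_ICD replicate 3. Its log2 value was 0.37 without that library and 0.12 without OE_CD51_ICD replicate 2.

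Per gene length, cytosolic synthetases were the more abundant. The highest deposited FPKM in NC were those of FARSA (72.7 ± 3.70), AARS (72.6 ± 2.80), QARS (66.0 ± 2.12), VARS (62.3 ± 3.42) and SARS (52.5 ± 2.04). FARSA and AARS did not differ beyond their spread. The highest mitochondrial gene was IARS2 at 16.6 ± 1.08 FPKM, and the lowest were SARS2 (1.26 ± 0.163) and WARS2 (1.88 ± 0.380). In OE_CD51_ICD, FARSA was 43.5 ± 7.41 and VARS 34.1 ± 4.05 FPKM, so that AARS (67.5 ± 7.56), QARS (57.0 ± 6.36) and SARS (50.05 ± 4.38) then led the order, while GARS went from 24.5 ± 1.26 to 37.7 ± 0.511. Across the 20 cytosolic genes, Pearson's r of the log2 FPKM in NC with the log2 fold change was -0.67. Across the 16 mitochondrial genes it was -0.01. Both describe genes of the same 6 libraries, which are not independent, and NC enters both measures.

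Enzymes for the same amino acid in the 2 compartments were set side by side as the ratio of cytosolic to mitochondrial FPKM, in 16 pairs. In 9 pairs the ratio was higher in every OE_CD51_ICD library than in every NC library, in 2 it was lower without overlap, and in 5 the groups overlapped. EPRS, which charges 2 amino acids, stood in 2 of the 9, over EARS2 and over PARS2. Among single tested genes 57.5% had groups without overlap, and no such share was computed for ratios. With 3 libraries against 3, the exact permutation test cannot give a p below 0.1, so the ratios are given without a call. For cysteine, CARS over CARS2 was 1.01, 1.12 and 1.18 in NC and 3.35, 3.51 and 2.96 in OE_CD51_ICD, a rise of the ratio by 2.97 times. For threonine, TARS over TARS2 was 0.542, 0.475 and 0.476 in NC and 1.52, 1.70 and 1.12 in OE_CD51_ICD, so that the less abundant of the 2 transcripts in NC was the more abundant in OE_CD51_ICD.

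The leucine and glutamate pairs moved in the same way. LARS over LARS2 was 1.08, 1.06 and 0.968 in NC and 2.01, 2.16 and 1.70 in OE_CD51_ICD, and EPRS over EARS2 was 0.930, 0.850 and 0.794 against 1.79, 1.96 and 1.25. In these 4 pairs the cytosolic gene was called higher and the mitochondrial gene lower, and in no pair was it the other way round. The arginine pair had both genes called higher, and the methionine and phenylalanine pairs had both called lower. The phenylalanine pair was FARSA over FARS2, and no ratio was computed for the other subunit, FARSB. The 2 pairs with a lower ratio were valine, where VARS over VARS2 went from 20.4, 16.8 and 17.7 to 10.8, 10.9 and 10.8, and histidine, with 2.02, 1.78 and 1.87 against 1.32, 1.32 and 1.72.

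**Figure D3:**
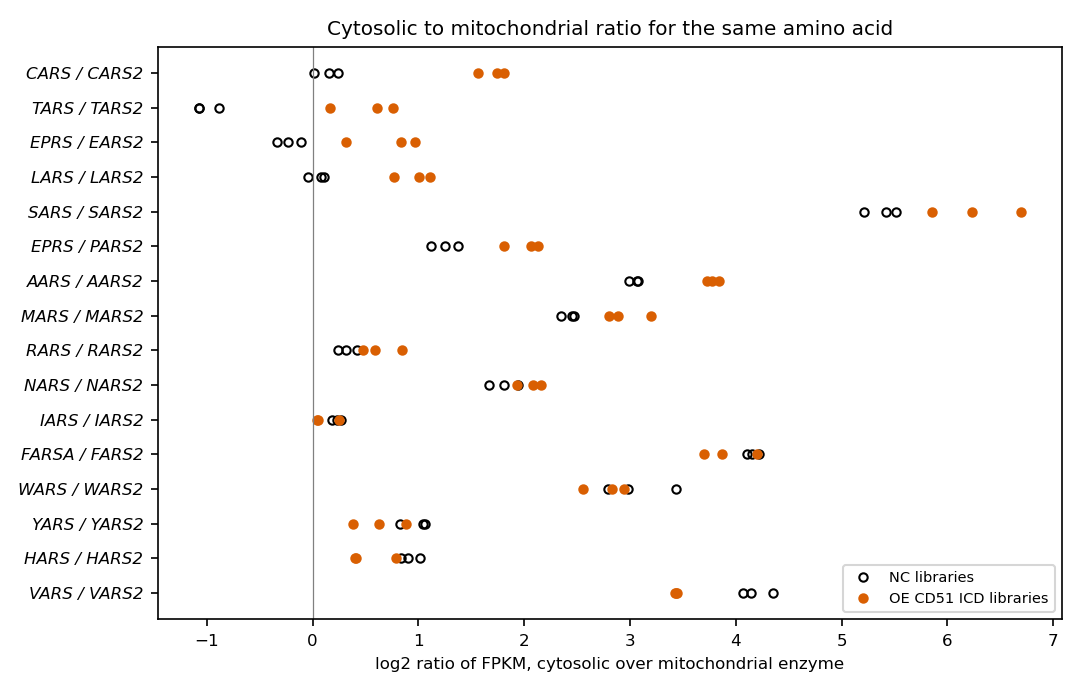
Log2 ratio of deposited FPKM, cytosolic over mitochondrial enzyme, for 16 pairs that charge the same amino acid (open points, 3 NC libraries; filled points, 3 OE_CD51_ICD libraries), ordered by the difference between groups. The ratio rose most for CARS over CARS2 and TARS over TARS2 and was lower in OE_CD51_ICD for HARS over HARS2 and VARS over VARS2.

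Neither the catalytic class nor the multisynthetase complex sorted the members into 1 direction. Of 18 class I genes, 4 were called higher and 8 lower, and of 17 class II genes, 2 were higher and 8 lower. These are 22.2% and 44.4% of class I and 11.8% and 47.1% of class II, against 25.2% higher and 25.8% lower among all tested genes. Of the 8 enzymes of the complex, EPRS, LARS and RARS were higher, MARS, KARS and QARS were lower, and IARS and DARS were not called. Both directions thus occurred within the complex, although the KARS and QARS calls were lost under 6 and 14 of 19 alternatives. Both also occurred outside it, where 3 of 12 cytosolic enzymes were higher and 5 lower (25% and 41.7%). The 3 scaffold proteins of the complex leaned lower. EEF1E1 measured 5.26, 5.24 and 3.85 CPM in NC and 1.97, 2.05 and 2.58 in OE_CD51_ICD (log2 -1.12 ± 0.25, edgeR adjusted p = 0.000327). AIMP2 measured 30.1, 33.7 and 26.4 against 18.7, 19.8 and 21.9 CPM (-0.58 ± 0.12, adjusted p = 0.000194). In both the groups did not overlap. AIMP1 was not called (-0.37 ± 0.16, adjusted p = 0.0504), its groups overlapped, and without NC replicate 3 its adjusted p was 0.0084.

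ATF4 is the transcription factor of the amino acid and integrated stress response, and many cytosolic synthetases are among its known targets. Of 13 cytosolic synthetases reported as targets of ATF4 or its partner CHOP, 5 were called higher (CARS, EPRS, GARS, LARS and TARS), 3 were lower (MARS, VARS and YARS) and 5 were not called. Of the other 7 cytosolic genes, RARS was higher (14.3%), 5 were lower (71.4%) and DARS was not called. The 5 were FARSA, FARSB, HARS, KARS and QARS, and the calls of the last 3 were lost under 8, 6 and 14 of 19 alternatives. Among all tested genes 25.2% were higher and 25.8% lower, and the reported targets stood at 38.5% and 23.1%, the latter near the background. ATF4 itself measured 299, 324 and 303 CPM in NC and 355, 345 and 369.7 in OE_CD51_ICD (log2 0.21 ± 0.08, edgeR adjusted p = 0.024). Of 28 tested genes of the ATF4 arm, 8 were higher and 13 lower (28.6%, near the background, and 46.4%), with VLDLR (1.57), DDIT4 (1.28) and SLC7A1 (0.63) the largest rises on the log2 scale and CEBPB (-1.27), SLC1A4 (-1.24) and STC2 (-1.18) the largest falls.

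Genes that act on tRNA before and after charging were counted in the same fit, in which 25.2% of all tested genes were higher and 25.8% lower. RNA polymerase III transcribes tRNA genes. Of 22 genes of the polymerase and its factors, 1 was higher (POLR3D, log2 0.28) and 9 were lower, among them POLR3K (-1.34) and BRF1 (-0.68). Not all of the 9 serve tRNA transcription: MAF1 (-0.23) is a repressor of the polymerase, and GTF3A (-0.30) serves 5S RNA genes. In MAF1 and GTF3A the groups overlapped. Of 21 tested tRNA processing genes, none was higher and 12 were lower, among them TSEN54 (-1.05), a subunit of the splicing endonuclease, and RPP25 (-0.95), a subunit of RNase P. The share called lower was 40.9% of the first list and 57.1% of the second. Their median log2 fold changes were -0.22 and -0.34. In POLR3K, BRF1, TSEN54 and RPP25 the groups did not overlap. RPP25 was low, at 3.74 ± 0.783 CPM in NC and 1.95 ± 0.995 in OE_CD51_ICD (SD), and its groups came as close as 2.90 and 2.86 CPM.

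Export and elongation factors moved in both directions. XPOT, the exportin of tRNA, was higher (log2 0.42), as was EEF1A1 (0.22), which carries aminoacyl-tRNA to the ribosome. NXT1 (-0.77), EEF1D (-0.40) and EEF2 (-0.39), the translocation factor, were lower, and 1 of the 6 tested genes of that list, EEF1B2, was not called. Of 13 mitochondrial translation cofactors, 9 were not called, 1 was higher and 3 were lower. That is 23.1% lower, near the 25.8% of all tested genes, so the list as a whole gave no more lower calls than the background. TUFM, the mitochondrial elongation factor that carries aminoacyl-tRNA, was lower at 412, 396 and 408 CPM in NC against 241, 225 and 275 in OE_CD51_ICD (-0.71 ± 0.08, edgeR adjusted p = 1.72e-08). TSFM, its exchange factor, was lower by a similar step (-0.71), and so was GATB (-0.52), a subunit of the enzyme that completes mitochondrial glutaminyl-tRNA, while MTRF1L, a release factor, was higher (0.59). Among 7 tested editing and related genes, TARSL2, a second cytosolic threonine enzyme, was higher (1.17) from a low level of 1.42 ± 0.524 to 3.19 ± 0.278 CPM, and PSTK, a kinase on the route to selenocysteinyl-tRNA, was lower (-0.86).

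**Figure D4:**
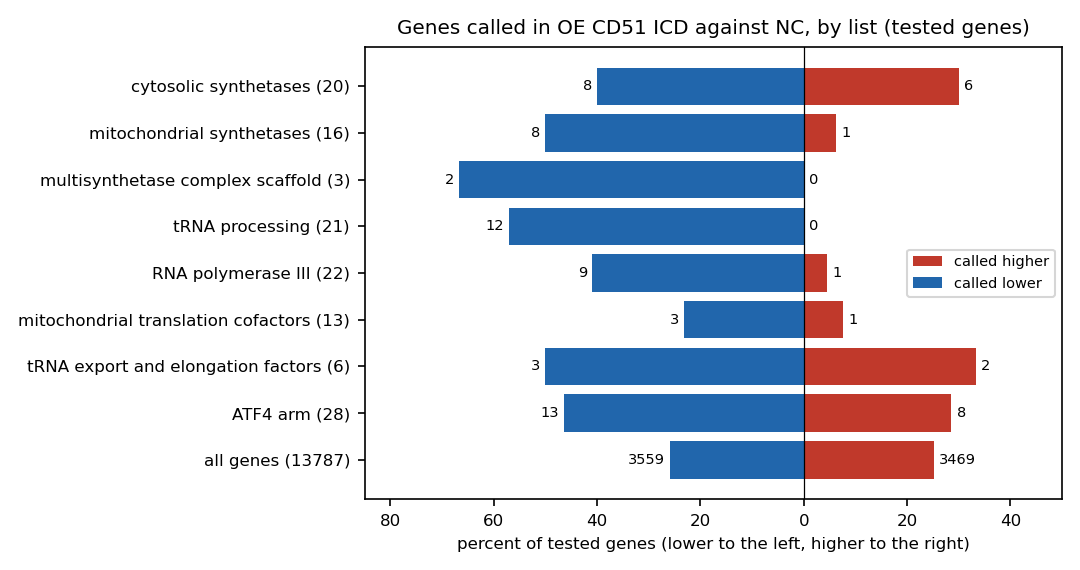
Percent of tested genes called lower (bars to the left, blue) and higher (bars to the right, red) in OE_CD51_ICD against NC, for the synthetase lists, related lists and all tested genes (numbers tested in brackets, numbers called beside the bars). The mitochondrial synthetases, tRNA processing, RNA polymerase III, mitochondrial translation cofactors and multisynthetase complex scaffold lists each have at most 1 gene called higher. The cytosolic synthetases have 6 higher and 8 lower.

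GC content of the transcript and the change moved together across members. Median GC was 43.2% for the 7 genes called higher, 54.2% for the 16 called lower and 49.9% for the 13 not called. Over the 36 genes, Pearson's r of GC with the log2 fold change was -0.69, and it was -0.68 within each of the cytosolic and mitochondrial lists. Over 13781 tested genes it was -0.23. These genes share the same 6 libraries, and no p is attached. With each library's GC trend over all genes removed, log2 values shrank for some members, among them LARS (0.20), EPRS (0.26), RARS (0.42), YARS (-0.24) and MARS (-0.22). They were larger in size for others, among them FARSB (-0.63), KARS (-0.33), HARS (-0.31) and CARS (0.47). The QARS and RARS2 calls were lost. IARS (-0.17, edgeR adjusted p = 0.0268) and NARS2 (-0.32, adjusted p = 0.0393), not called otherwise, were then called lower. Over all 19 alternatives, which include the GC offsets, the values nearest to 0 were -0.59 for VARS, -0.49 for FARSA, -0.61 for AARS2 and 0.48 for TARS. In the main fit these were -0.87, -0.74, -0.84 and 0.67. The relation had exceptions, picked after their values were seen: GARS and CARS rose at GC of 48.6% and 51.9%, and FARSB and MARS2 fell at 41.6% and 48.4%. With each library's trend on gene length removed instead, CARS was 0.22.

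**Figure D5:**
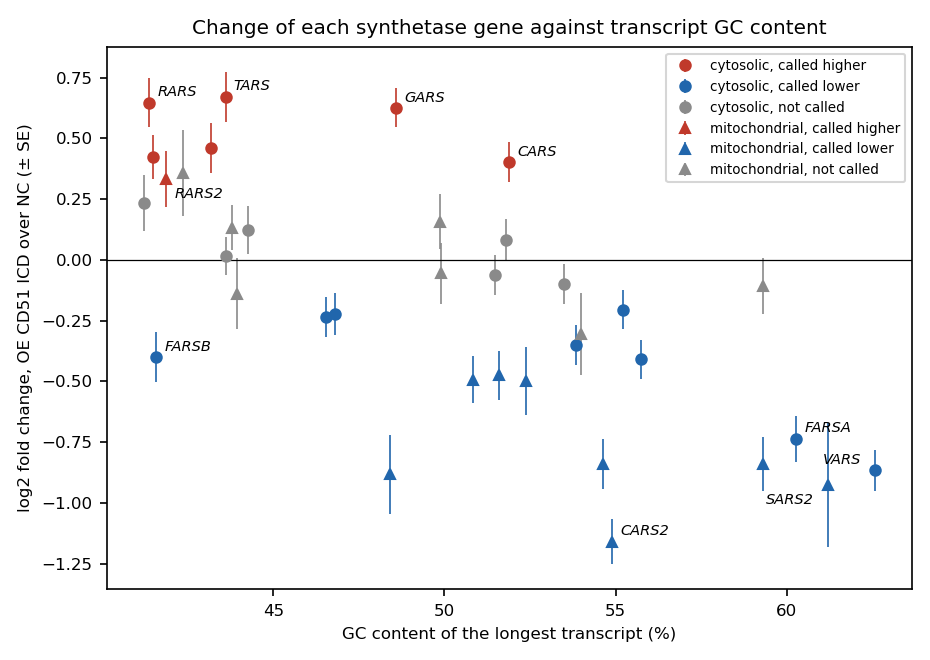
Log2 fold change of each synthetase gene (points, with the standard error as bars) against the GC content of its longest transcript in percent, cytosolic genes as circles and mitochondrial genes as triangles, coloured by call. The genes called lower lie mostly at higher GC (median 54.2%) than those called higher (median 43.2%), and FARSB is called lower at 41.6%.

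The OE_CD51_ICD libraries were not equally far from NC. Of the 16 members called lower, OE_CD51_ICD replicate 3 was the highest of its group in 14. Of the 7 called higher, replicate 2 was the highest in 5 and replicate 3 the lowest in 5. Replicate 3 was thus the nearest to NC for most members in both directions. The count of members called without it was 7 higher and 8 lower among cytosolic genes, and 2 higher and 8 lower among mitochondrial genes.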

How the data were processed

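RNA sequencing covered 3 NC and 3 OE_CD51_ICD libraries, grouped by sample title. The authors deposited whole-number gene counts and FPKM for each library, not pooled. Per the file headers, each table gives gene IDs, coordinates and gene length, and all 58735 IDs and coordinates equalled GENCODE 29. The deposited FPKM values were the counts divided by gene length and a constant per library of 0.961 to 1.05 times its total count. Per the submitters' processing notes the build was hg38. The sources used here do not name the aligner or the counter, nor say whether strand was used. Per the labels' protocols, RNA was extracted by either of 2 kits, and which library had which is not given.

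The test on counts was that of edgeR 4.0.16 under R 4.3.3 (filterByExpr, TMM scaling, glmQLFit and glmQLFTest, two-sided), with Benjamini-Hochberg adjustment over the 13787 tested genes, and called at an adjusted p under 0.05. Levels are CPM, scaled by TMM. Standard errors were derived from the F statistic. The common biological coefficient of variation was 9.44%. No libraries were duplicates: the chi-square per degree of freedom between libraries of a group was 3.94 to 12.1. On simulated counts of 13787 genes with 200 changed, recovery was 89% at a log2 fold of 1 and 93% at 2, and 5.7% of calls were false. In the data 51.0% of tested genes were called, and CARS2 alone among the members reached a log2 fold of 1 in size. The simulated rates thus do not carry over to the smaller changes of the other members.

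The members, lists, motifs and alternatives were chosen with earlier results of these data known. Every member is accounted for. From each related list, up to 3 called genes per direction with the largest change were named, of which some are not reported here; HARS and QARS, beyond the first 12 cytosolic genes by size of change, and AIMP1 and EEF1B2 were named to complete their lists. Alternatives were scaling by RLE, by upper quartile or by library size, limma 3.58.1 (voom, log2(FPKM + 1), log2(FPKM + 0.1)), DESeq2 1.42.0, other count filters, leaving out each library, the replicate number as a block, and loess offsets (span 0.3) for GC or gene length. GC came from the longest GENCODE 29 transcript and was known for 99.96% of tested genes. RefSeq promoter windows (GRCh38.p14) were matched by symbol or synonym at the same position. Plots used matplotlib 3.10.9, and tables used pandas 2.3.3 and SciPy 1.17.1 with NumPy 2.4.6 in Python 3.11.15.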

Additional observations from a re-analysis of the deposited data

How the results depend on the processing

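Of the 23 members called, 18 (12 lower and 6 higher) kept their call under all 19 alternatives run, and none of the 23 changed sign. The calls lost were those of QARS, HARS, KARS, RARS2 and FARS2. Under upper-quartile scaling, 5 cytosolic genes were lower and the cytosolic median was 0.022, and with library size alone it was -0.086. No mitochondrial gene (0) was higher with library size alone, the GC offset, or the GC offset with the replicate block, and 2 were with the length offset. Leaving out 1 library gave 5 to 8 cytosolic genes lower and 0 to 2 mitochondrial genes higher. The cause of these moves was not tested. The all-gene median moved to 0.06 under upper-quartile scaling and -0.05 with library size alone.

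Sign changes were found only among genes not called. IARS was -0.046 with library size alone, -0.17 with the GC offset, -0.17 with the GC offset and block, and -0.078 with the length offset. Leaving out 1 library put IARS between -0.0077 (without NC replicate 2) and 0.046 (without OE_CD51_ICD replicate 3), and YARS2 between -0.15 (without OE_CD51_ICD replicate 1) and 0.027 (without OE_CD51_ICD replicate 3). With the length offset YARS2 was 0.10 and SARS 0.0092. With the GC offset alone and with the block added, AARS was 0.016 and 0.015, DARS -0.0045 and -0.0095, NARS -0.049 and -0.050, IARS2 -0.052 and -0.052, and VARS2 0.12 and 0.12. The cause was not tested.

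With the replicate number as a block, 3437 genes were higher and 3552 lower, the cytosolic counts were 6 and 8, the mitochondrial counts 1 and 8, and no member's call changed. Same-numbered libraries did not deviate together (correlations -0.05, 0.0013 and 0.05), so the numbers were not taken to pair the libraries. Depth limited SARS2 most, with 95 counts over the OE_CD51_ICD libraries.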

Other observations

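Several genes of the related lists had almost no reads although they are widely expressed in cultured cells. EEF1G, a subunit of elongation factor 1, had 0 counts in every library, and 99.9% of its exon bases are shared on the same strand with AP002990.1, which had 339 counts over all libraries. ASNS, the asparagine synthetase, had 9 counts in NC and 16 in OE_CD51_ICD, with 44.6% of its bases shared with AC079781.5 (49 counts). AARSD1, an alanyl-tRNA editing protein, had 32 and 30 counts, with 34.2% shared with PTGES3L-AARSD1. RPP21, a subunit of RNase P, had 5 and 17 counts, with 28.1% shared with TRIM39-RPP21. SLC38A2, an amino acid transporter, had 9 and 19 counts and shares no exon base with a gene on either strand. ASNS, EEF1G, RPP21 and SLC38A2 were not tested in the fit. These genes were chosen after their values were seen, and the part of shared bases in their low counts was not tested.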
